A study of Arabidopsis thaliana with 21 samples.

Results

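B-type cyclins and B-type cyclin-dependent kinases (CDKB) drive plant cells into and through mitosis, and 10 of their genes were followed here from the dry seed to the young seedling of Arabidopsis thaliana. The genes were taken by locus, though with earlier results of these data known: CYCB1;1 (AT4G37490), CYCB1;2 (AT5G06150, which the reference annotation calls CYC1BAT), CYCB1;3 (AT3G11520), CYCB1;4 (AT2G26760), CYCB2;1 (AT2G17620), CYCB2;2 (AT4G35620), CYCB2;3 (AT1G20610), CYCB2;4 (AT1G76310), CDKB1;1 (AT3G54180) and CDKB2;1 (AT1G76540). All 10 were measured, each by 1 probe set, among 27789 loci on the array. Of the 10 genes, 3 lie on chromosome 1, 2 each on chromosomes 2, 3 and 4, and 1 on chromosome 5.

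A cyclin-dependent kinase is active only when bound to a cyclin, and the cyclin decides when in the cell cycle and on which targets it acts. In plants, B-type cyclins accumulate late in the G2 phase and in mitosis and are then destroyed by the anaphase-promoting complex, while CDKB kinases form a plant class whose own transcripts also rise toward mitosis. Mature embryos hold resting cells, the radicle emerges mainly by cell elongation, and divisions in root and shoot tissues of the seedling come later, so these transcripts are widely used to follow where and when division takes place.

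The study asked how the transcriptome changes as a seed becomes a seedling that lives on light, and it sampled the cultivar Col-0 at 7 stages on 21 expression arrays. The stages were the mature dry seed (DS), the seed after 6 h of imbibition (6H), the broken testa (TR), the emerged radicle (RP), the first root hairs (RH), green cotyledons (GC) and fully opened cotyledons (OC). Seeds lay for 72 h at 4 °C on wet filter paper and then went to constant white light at 22 °C, and whole seeds or seedlings of each stage were picked by eye under a stereomicroscope. No other genotype or treatment was included. Each stage had 3 biological replicates, each made from pooled seeds of several plants, and 50 ng of total RNA per array was amplified and labelled with biotin. The labels do not say what the 6 h counts from, nor whether dry seeds passed through the cold.

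Levels are log2 values as deposited, a stage level is the mean of 3 arrays, and a change is the later minus the earlier stage with its standard error (SE) from limma. A gene is said to rise or fall where the p-value adjusted over all 27789 loci by the Benjamini-Hochberg method was under 0.05, and 2-fold counts also required a log2 change of at least 1. Levels below 3.47, which 30% of all values did not reach, were called near the floor. A change between such a level and one clear of the floor is only a lower bound, and where both levels are near the floor its size cannot be read. Levels of different genes come from different probes and are not compared. The lowest correlation across loci between replicate arrays of a stage was 0.981. DS replicate 2 and OC replicate 2 stood apart from their partners in their low values: their own 30th percentiles were 3.7 and 3.82, against 3.38 and 3.55 in the other dry seed arrays and 3.63 and 3.66 in the other opened-cotyledon arrays. Tissue markers followed the stage labels, since the summed level of 4 storage genes ran from 47.4 to 47.8 at DS and from 18.5 to 24.8 at GC, and that of 4 photosynthesis genes from 19.3 to 21 at DS and from 38.4 to 39.1 at OC. The GC arrays differed more from each other in the storage genes than those of any other stage, against 18.7 to 19.9 at RH. With 3 arrays a stage, their number sets how precise any level can be.

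All 10 genes had their highest level at the greening-cotyledon stage. Among all loci 7.72% had their highest level there. In each of the 10 genes the 3 GC arrays lay above the 18 other arrays, which held for 1.81% of all loci. The lowest level fell at 6H in 8 genes and at DS in CYCB1;1 and CDKB2;1. All 8 were near the floor at 6H, and 5 of them also at DS, so that their order of DS and 6H cannot be read. The low end of all loci was itself lower at 6H, with 30th percentiles of 3.09 to 3.22 against 3.38 to 3.7 at DS. The share of all loci lowest at 6H was not counted. Limma's F test over the stages, for genes whose stage means spanned at least 1, called 10 of 10 genes against 66.4% of all loci. The range ran from 1.84 in CYCB2;1 to 5.07 in CYCB1;4, and of the 70 stage means 17 were near the floor. Samples were whole seeds and seedlings, so fewer cells with the transcript and less transcript per cell cannot be told apart.

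**Figure D1:**
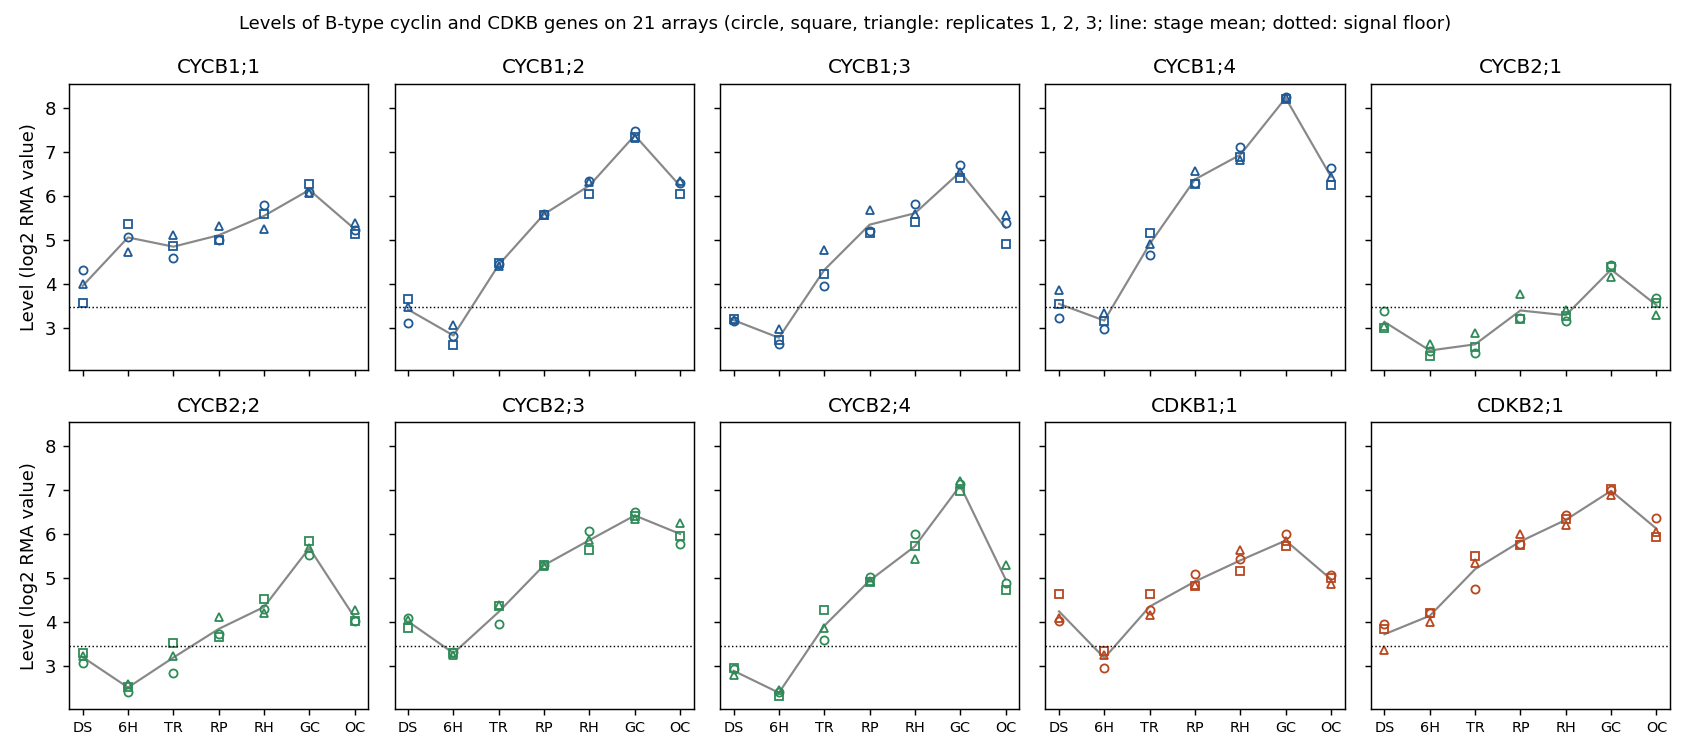
Level of each B-type cyclin and CDKB gene (vertical axis, log2 value) at the 7 stages (horizontal axis), with circles, squares and triangles for replicates 1, 2 and 3, a grey line through the stage means and a dotted line at the floor of 3.47. All 10 lines reach their highest point at GC, and CYCB1;1 and CDKB2;1 differ from the other lines by a higher level at 6H than at DS.

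The CYCB1 cyclins are the best known of these genes. CYCB1;4 had the widest range of the 10. Its arrays read 3.23, 3.53 and 3.85 at DS, 2.98, 3.16 and 3.33 at 6H, 4.66, 5.14 and 4.89 at TR, 6.29, 6.26 and 6.55 at RP, 7.1, 6.88 and 6.81 at RH, 8.25, 8.2 and 8.23 at GC, and 6.62, 6.24 and 6.42 at OC. The arrays overlapped between DS and 6H and between RP and OC, and did not overlap in any consecutive step from 6H on. It rose by 1.74 ± 0.16 from 6H to TR (adjusted p = 1.4e-08), by 1.47 ± 0.16 to RP (adjusted p = 1.5e-06), by 0.56 ± 0.16 to RH (adjusted p = 0.012) and by 1.29 ± 0.16 to GC (adjusted p = 7.1e-06), and fell by 1.8 ± 0.16 to OC (adjusted p = 2.2e-08). The first of these rises is a lower bound, since the 6H level was near the floor, and the level at GC was 33.5-fold that at 6H. OC and RP were neighbours in the order of stages and were not set apart, with a gap of 0.06 (adjusted p = 0.79). The fall from DS to 6H, -0.38 ± 0.16 (adjusted p = 0.037), did not pass under a further quantile normalization (-0.03, adjusted p = 0.91). Nor did it pass in a fit of only the 6 arrays compared (-0.38, adjusted p = 0.088), or without DS 2 (-0.38, adjusted p = 0.067), DS 3, 6H 1 or 6H 2. The rise from RP to RH did not pass without RH 1 (0.48, adjusted p = 0.065) or RP 2 (0.51, adjusted p = 0.053).

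CYCB1;2 followed a like course. It read 3.11, 3.65 and 3.48 at DS, 2.8, 2.61 and 3.05 at 6H, 4.44, 4.47 and 4.39 at TR, 5.59, 5.57 and 5.57 at RP, 6.34, 6.04 and 6.32 at RH, 7.47, 7.34 and 7.3 at GC, and 6.28, 6.03 and 6.34 at OC. Each stage from TR to GC lay wholly above the one before, and OC came back among the RH arrays, from which its mean differed by 0.02 (adjusted p = 0.94). From DS to 6H, both near the floor, it fell by 0.59 ± 0.14 (adjusted p = 9e-04), which was -0.24 under a further quantile normalization (adjusted p = 0.12). It then rose by 1.61 ± 0.14, 1.15 ± 0.14, 0.65 ± 0.14 and 1.14 ± 0.14 over the next 4 steps (adjusted p = 7.3e-09, 7.4e-06, 0.0014 and 7.5e-06). Its fall when the cotyledons opened was -1.15 ± 0.14 (adjusted p = 1.6e-06), and its OC level was still above that at RP by 0.64 ± 0.14 (adjusted p = 5e-04).

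CYCB1;3 had stage means of 3.17 at DS, 2.77 at 6H, 4.31 at TR, 5.34 at RP, 5.6 at RH, 6.54 at GC and 5.27 at OC. Its GC arrays read 6.69, 6.4 and 6.54 and its OC arrays 5.37, 4.9 and 5.55. The steep parts of its course were 6H to TR with 1.53 ± 0.2 (adjusted p = 1.7e-06), TR to RP with 1.03 ± 0.2 (adjusted p = 0.00099), RH to GC with 0.95 ± 0.2 (adjusted p = 0.0016) and GC to OC with -1.27 ± 0.2 (adjusted p = 3.8e-05). DS to 6H (-0.4 ± 0.2, adjusted p = 0.074) and RP to RH (0.26 ± 0.2, adjusted p = 0.42) did not pass, and RP and OC, next to each other in the order, were 0.07 apart (adjusted p = 0.81). All 6H arrays lay below all DS arrays, both near the floor, and the change between them passed in 7 alternatives, among them median centring (-0.77, adjusted p = 0.0013), reference centring (-0.61, adjusted p = 0.008), a replicate block (-0.4, adjusted p = 0.041) and a fit of only the 6 arrays compared (-0.4, adjusted p = 0.026).

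CYCB1;1, the usual reporter of cells in G2 and mitosis and also known to be induced by DNA damage, began in another way. It read 4.31, 3.55 and 4 at DS, 5.05, 5.35 and 4.73 at 6H, 4.58, 4.85 and 5.1 at TR, 4.99, 4.99 and 5.3 at RP, 5.78, 5.58 and 5.25 at RH, 6.08, 6.26 and 6.05 at GC, and 5.21, 5.13 and 5.37 at OC. All 6H arrays were above all DS arrays, while 6H, TR and RP overlapped. It rose 2.13-fold from DS to 6H (1.09 ± 0.19, adjusted p = 4.8e-05), which was 0.89 without DS 2 (adjusted p = 0.00047). It then changed by -0.2 ± 0.19, 0.25 ± 0.19 and 0.44 ± 0.19 up to RH without passing (adjusted p = 0.43, 0.46 and 0.11). From RH to GC it rose by 0.59 ± 0.19 (adjusted p = 0.03). That call did not hold without GC 1, GC 2, GC 3, RH 2 or RH 3 (0.45 to 0.63, adjusted p from 0.05 to 0.16). Nor did the call hold under a further quantile normalization (0.61, adjusted p = 0.088). CYCB1;1 fell by 0.89 ± 0.19 to OC (adjusted p = 0.00098). In its order of stages GC at the top and DS at the bottom were set apart from their neighbours. None of the 5 stages between was set apart from the next. Even so, RH was above 6H by 0.49 ± 0.19 (adjusted p = 0.031) and above TR by 0.69 ± 0.19 (adjusted p = 0.0058).

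The CYCB2 cyclins are the other group of mitotic cyclins studied here, and CYCB2;4 had the widest range among them. Its arrays read 2.93, 2.96 and 2.81 at DS, 2.41, 2.33 and 2.47 at 6H, 3.6, 4.28 and 3.88 at TR, 5.02, 4.91 and 4.93 at RP, 6.02, 5.73 and 5.45 at RH, 7.14, 6.98 and 7.22 at GC, and 4.89, 4.73 and 5.31 at OC. It climbed without overlap from 6H to GC, and its OC arrays fell back among those of RP, with means 0.02 apart (adjusted p = 0.93). The rises were 1.52 ± 0.17 to TR (adjusted p = 2.3e-07), 1.04 ± 0.17 to RP (adjusted p = 2e-04), 0.78 ± 0.17 to RH (adjusted p = 0.0016) and 1.38 ± 0.17 to GC (adjusted p = 7.3e-06). Its fall from GC to OC was the largest of the 10, -2.14 ± 0.17 (adjusted p = 4.8e-09), and left 0.227 of the GC level.

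CYCB2;2 read 4.31, 4.52 and 4.21 at RH, 5.52, 5.86 and 5.7 at GC and 4.02, 4.04 and 4.28 at OC. Those 3 GC values stood well clear of both neighbours, by 1.35 ± 0.16 over RH (adjusted p = 4.6e-06) and by 1.58 ± 0.16 over OC (adjusted p = 1.3e-07). Its earlier means were 3.21 at DS, 2.52 at 6H, 3.2 at TR and 3.85 at RP, and so near the floor until the radicle emerged. The rise from TR to RP, 0.65 ± 0.16 (adjusted p = 0.0071), did not pass without TR 1 or RP 3. Nor did it pass in a fit of only the 6 arrays compared (0.65, adjusted p = 0.054). That from RP to RH, 0.5 ± 0.16 (adjusted p = 0.025), did not pass without RH 1, RH 2, RP 1 or RP 2. With these arrays left out, values in either step lay between 0.41 and 0.52. Under a further quantile normalization the rise from RP to RH was 0.4 (adjusted p = 0.09).

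CYCB2;3 kept most of its GC level when the cotyledons opened. It read 5.31, 5.31 and 5.28 at RP, 6.08, 5.65 and 5.87 at RH, 6.52, 6.41 and 6.36 at GC and 5.78, 5.97 and 6.27 at OC, after means of 4.02 at DS, 3.3 at 6H and 4.24 at TR. The OC arrays lay below those of GC and above those of RP, and overlapped those of RH, from which the mean was 0.14 apart (adjusted p = 0.44). Its fall to OC was the smallest of the 10, -0.42 ± 0.14 (adjusted p = 0.02). This fall did not pass on reference-centred values (-0.28, adjusted p = 0.11) or in a fit of only the 6 arrays compared (-0.42, adjusted p = 0.072). Nor did it pass without GC 1 (-0.38, adjusted p = 0.072), OC 1 (-0.31, adjusted p = 0.12) or OC 2 (-0.41, adjusted p = 0.053). CYCB2;3 had risen by 0.95 ± 0.14, 1.05 ± 0.14, 0.57 ± 0.14 and 0.57 ± 0.14 in the 4 steps from 6H to GC (adjusted p = 7.5e-06, 1.9e-05, 0.0041 and 0.0051).

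CYCB2;1 was near the floor at 5 of the 7 stages. Its arrays read 3.16, 3.27 and 3.4 at RH, 4.43, 4.38 and 4.15 at GC and 3.68, 3.55 and 3.29 at OC. GC was the one stage with all 3 arrays clear of the floor. The GC level was 1.04 ± 0.16 above RH (adjusted p = 0.00011), a lower bound, and 0.81 ± 0.16 above OC (adjusted p = 0.00053).

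Of the kinases, CDKB1;1 is known to act with A-type cyclins and to take part in the divisions of the stomatal lineage. It read 4.02, 4.64 and 4.1 at DS, 2.97, 3.35 and 3.26 at 6H, 4.28, 4.64 and 4.16 at TR, 5.1, 4.83 and 4.86 at RP, 5.44, 5.16 and 5.64 at RH, 6.01, 5.73 and 5.85 at GC, and 5.08, 5 and 4.88 at OC. Of the 3 dry seed arrays 2 lay below all arrays of testa rupture and DS 2, one of the arrays that stood apart, reached their range. The means of DS and TR were 0.11 apart (adjusted p = 0.56), and 6H lay below both. It fell by 1.06 ± 0.17 from DS to 6H (adjusted p = 1.7e-05), a lower bound since its 6H level was near the floor, or by 0.86 without DS 2 (adjusted p = 0.00014), and it regained 1.16 ± 0.17 to TR (adjusted p = 7.7e-06). Later rises were shallower: 0.57 ± 0.17 to RP (adjusted p = 0.025), 0.48 ± 0.17 to RH (adjusted p = 0.043) and 0.45 ± 0.17 to GC (adjusted p = 0.066). The call to RP was lost without RP 1, TR 1 or TR 3 (0.47 to 0.53). Further quantile normalization (0.51, adjusted p = 0.051) and reference centring (0.48, adjusted p = 0.054) lost it too. The call to RH was lost without RH 1, RH 3, RP 2, RP 3, 6H 3 or GC 3 (0.37 to 0.48). It was also lost with median centring (0.46, adjusted p = 0.07), a trended and robust prior (0.48, adjusted p = 0.053) or a replicate block (0.48, adjusted p = 0.055). The step to GC, whose arrays did not overlap, passed without DS 2 (0.45, adjusted p = 0.032) or RH 3 (0.56, adjusted p = 0.044), and with array weights (0.45, adjusted p = 0.03). The fall to OC was -0.88 ± 0.17 (adjusted p = 0.00036).

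CDKB2;1, a kinase of G2 and mitosis known to be needed for an ordered shoot meristem, read 3.97, 3.84 and 3.37 at DS, 4.22, 4.22 and 4 at 6H, 4.75, 5.51 and 5.36 at TR, 5.79, 5.75 and 6 at RP, 6.43, 6.34 and 6.21 at RH, 7.02, 7.04 and 6.9 at GC, and 6.37, 5.95 and 6.05 at OC. Each stage up to GC lay above the one before without overlap. The step changes were 0.42 ± 0.18, 1.06 ± 0.18, 0.64 ± 0.18, 0.48 ± 0.18 and 0.66 ± 0.18 up to GC (adjusted p = 0.04, 3.8e-05, 0.016, 0.052 and 0.01), of which the fourth did not pass. The change from RP to RH passed in 12 alternatives (0.46 to 0.53, adjusted p from 0.0091 to 0.05), both centrings, array weights and a fit of only the 6 arrays compared among them. The step from DS to 6H did not pass with arrays centred on the median of all loci (0.05, adjusted p = 0.76) or on reference genes (0.21, adjusted p = 0.31). Nor did it pass without DS 3 (0.24, adjusted p = 0.24), 6H 1 (0.38, adjusted p = 0.11) or 6H 2 (0.38, adjusted p = 0.1). The step from TR to RP did not pass without TR 1 (0.41, adjusted p = 0.11) or RP 3 (0.56, adjusted p = 0.075). A fit of only the 6 arrays compared lost both of these calls (0.42, adjusted p = 0.061, and 0.64, adjusted p = 0.058). The fall to OC was -0.86 ± 0.18 (adjusted p = 0.00066), to a level not set apart from RH (0.2 below, adjusted p = 0.38) or RP (0.28 above, adjusted p = 0.19).

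Step by step, most of the 10 genes went down on imbibition, up in the steps that followed to GC, and all went down at the end. Between the dry seed and 6 h of imbibition 7 of them fell and 2 rose, where 40% of all loci fell and 29.6% rose. In each direction 1 gene reached 2-fold, against 10.7% of all loci downward and 14.6% upward, and none did without DS 2. The median change of the 10 was -0.55, against -0.23 over all loci, and 5 of them were near the floor at both stages. Of the 6874 loci near the floor at both stages 48.2% fell, with a median of -0.38. Under a further quantile normalization 2 of the 10 genes fell and 2 rose, with a median of -0.2 against -0.03 over all loci.

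While the testa broke, 8 of the 10 genes rose and none fell, against 22.2% of all loci that rose and 26.2% that fell, and 6 rose at least 2-fold, against 9.8%. The median change was 1.11, against 0.01 over all loci. As the radicle came through, 9 rose and none fell, against 7.83% and 7.45% of all loci, and 5 passed 2-fold, against 2.34%. Of those 5, 3 lay at 1.03 to 1.05, and without TR replicate 1 the count was 2, and that of all rises 6. The mean over the 10 genes was 3.95 on that array and 4.36 and 4.3 on its partners. The median change was 0.9, against -0.01.

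Up to the root hair stage 6 of the 10 rose and none fell, against 11.5% and 11.9% of all loci, and none of the 10 reached 2-fold, against 3.65% of all loci that did so upward. The count of 6 was 3 without RP 2, 3 without RH 1 and 8 with array weights. From there to greening cotyledons 9 rose and none fell, against 10.1% and 10.9%, and 5 passed 2-fold, against 2.6%. In all 10 the GC arrays lay above those of RH, which held for 18.8% of all loci. The median change was 0.49 in the first of these steps and 1 in the second, against -0.02 and 0.02 over all loci.

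When the cotyledons opened, all 10 genes fell, against 17.9% of all loci that fell and 16.1% that rose, and 5 fell at least 2-fold, against 3.02%. In all 10 the OC arrays lay below those of GC, as in 22.1% of all loci. The median change was -1.02, against -0.03. The count was 9 on reference-centred values, in a fit of only the 6 arrays compared, and without GC 1, OC 1 or OC 2.

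**Figure D2:**
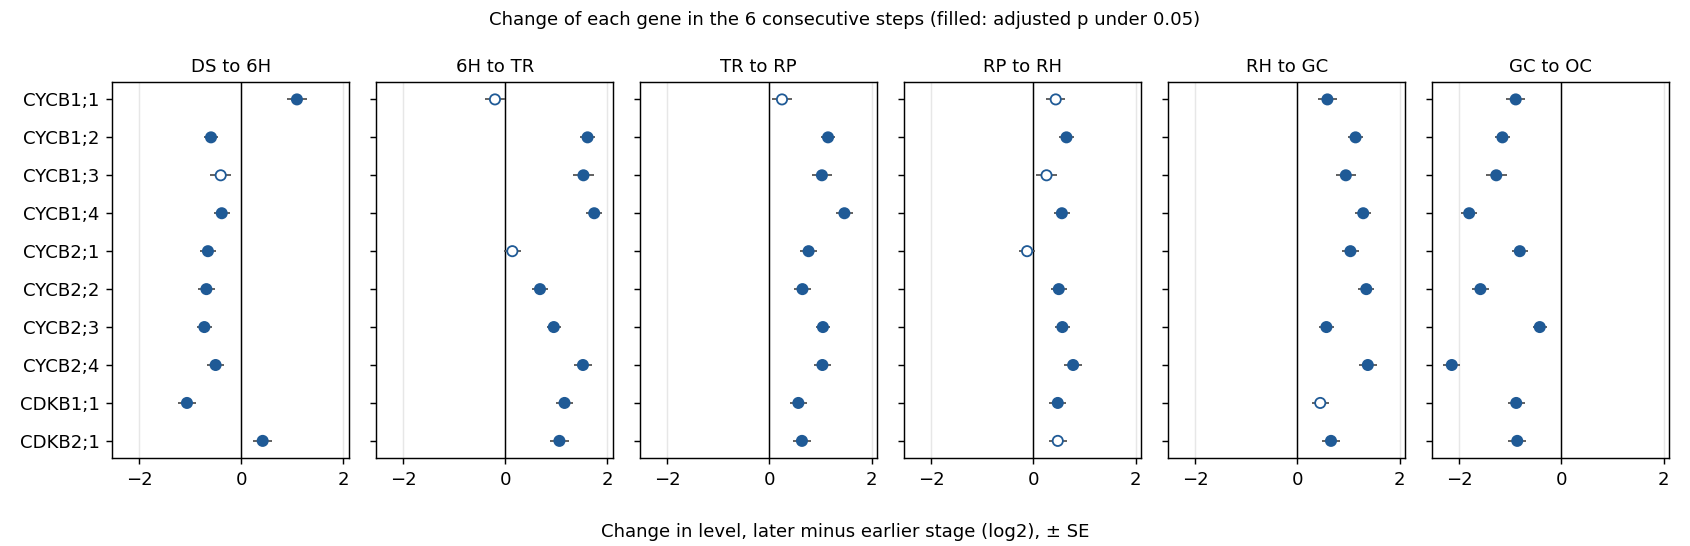
Change of each gene (horizontal axis, later minus earlier stage, log2, bars ± SE) in the 6 consecutive steps from DS to OC, with filled points where the adjusted p was under 0.05. In the last step, GC to OC, all 10 points are filled and lie below 0, from -2.14 to -0.42, while from 6H to GC no filled point lies below 0.

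Over germination as a whole, DS to RP, 9 of the 10 genes rose and none fell, against 31.7% and 40.8% of all loci, and 7 rose at least 2-fold, against 20.5%. The rises ran up to 7.11-fold, with CYCB2;1 alone not passing (0.26 ± 0.16, adjusted p = 0.16). With median centring, and with reference centring, 7 of the 10 rose. The span from RP to OC holds both the rise to GC and the fall after it, and there 2 genes rose and none fell, against 25.8% and 28.8% of all loci. None reached 2-fold, against 12.7% upward and 11% downward. The 2 that rose were CYCB2;3 by 0.71 ± 0.14 (adjusted p = 0.00015) and CYCB1;2, given above, and the other 8 changed by -0.07 to 0.28. The count that rose was 4 on reference-centred values and 3 without RP 3. Over the full course, DS to OC, all 10 rose, against 33.2% of all loci that rose and 42.4% that fell, and 7 passed 2-fold, against 23.1%. CYCB2;1 was the weakest of these rises (0.37 ± 0.16, adjusted p = 0.044), with overlapping arrays. The count that rose was 8 under a further quantile normalization or with median centring, and 9 with reference centring, array weights, a trended and robust prior, a fit of only the 6 arrays compared, or without DS 2, DS 3, 6H 1, RH 2, OC 1 or OC 2. These spans share stages with the single steps and with each other.

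The 10 genes moved closely together over the 21 arrays, with 2 exceptions. Pearson r between genes ran from 0.56 to 0.99 over the 45 pairs, with a median of 0.92, and 27 pairs were above 0.9. These values describe arrays that share stages and 1 normalization. CYCB1;1 had a median r of 0.73 with the other genes and was closest to CDKB2;1 at 0.85, the other gene with its lowest level in the dry seed. CYCB2;1, near the floor at most stages, had a median r of 0.81, and CYCB1;4 had the highest at 0.96.

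**Figure D3:**
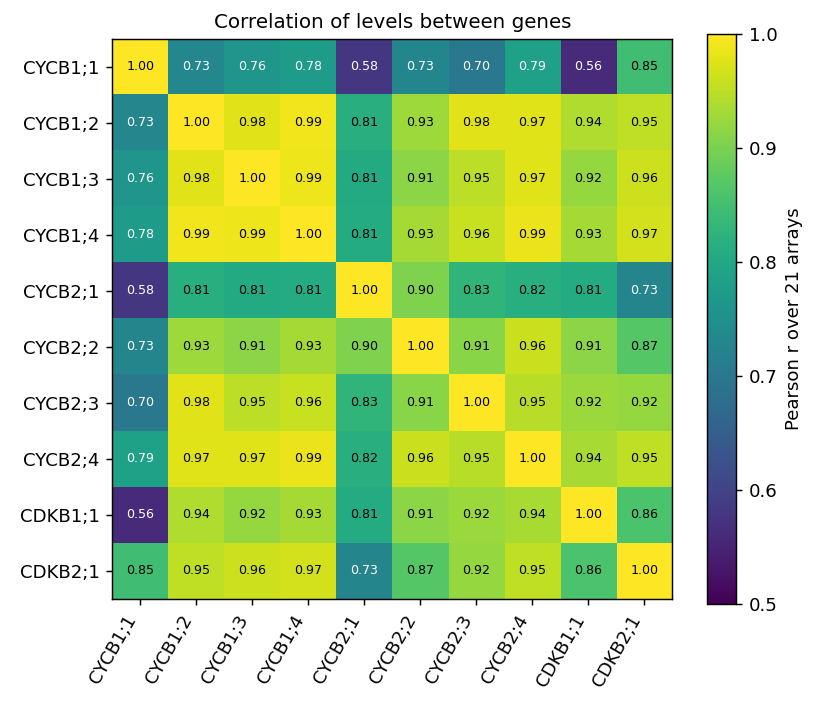
Pearson r of the log2 levels of each pair of the 10 genes over 21 arrays (colour and number in each cell). The top line, CYCB1;1, runs from 0.56 to 0.85, below most other cells, and 27 of the 45 pairs are above 0.9.

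Among the 18474 other loci whose stage means spanned at least 1, several of those most like the mean of the 10 genes are known from cell division. The closest was ATN (AT3G05330, the TANGLED gene that marks the division plane) with r = 0.992 over 21 arrays. HIK (AT1G18370, HINKEL, a kinesin of the phragmoplast) and SYP111 (AT1G08560, KNOLLE, the syntaxin of the cell plate) followed with 0.989 each, and CDC20.1 (AT4G33270), which activates the anaphase-promoting complex, had 0.988. AT5G62550 and AT2G28620 had 0.987 each, AT5G12340 had 0.985, AT3G12870 and ENODL13 had 0.984 each and AT3G02120 had 0.982. All 10 were highest at GC, and they were picked for likeness to genes that are. Of these 10, 5 were also among the closest by Spearman correlation and 6 by the 7 stage means.

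For single genes, HIK was closest to CYCB1;4 at 0.995 and to CYCB1;3 at 0.983, and CDC20.1 was closest to CYCB1;2 at 0.991. CYCB2;4 was closest to POK2, a kinesin that orients the phragmoplast, at 0.99, followed by the dynamin-related DRP5A at 0.986. CDKB2;1 was closest to 3xHMG-box2, a protein of mitotic chromosomes, at 0.98, and CDKB1;1 to YLMG2 at 0.97, with the mitotic kinase AUR1 at 0.959. CYCB1;1 was closest to AT4G16060 at 0.925, and its next were genes of plastid metabolism, DPE1 at 0.925 and DiT1 at 0.912. The closest loci to the CYCB2 cyclins not yet named were AT4G02800 at 0.983, CYP709B3 at 0.983 and AT4G28230 at 0.941.

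The rest of the mitotic machinery was taken from lists of the pathway. For the counts in these lists, 31.7% of all loci rose and 40.8% fell from DS to RP. From RP to OC 25.8% rose and 28.8% fell. Of all loci 37.7% were highest at DS, 17% at 6H, 7.36% at TR and 5.39% at RP. The share highest at RH was 6.15%, at GC 7.72% and at OC 18.7%. The 3 other genes of the same families, CDKB1;2 (AT2G38620), CDKB2;2 (AT1G20930) and CYCB3;1 (AT1G16330), were also highest at GC, with levels there of 5.17, 5.86 and 4.99. All 3 rose over germination (DS to RP), by 1.79 ± 0.2, 1.32 ± 0.28 and 0.87 ± 0.17 (adjusted p = 1e-07, 0.00033 and 0.00017), and none passed between RP and OC, at 0.38, -0.26 and 0.08 (adjusted p = 0.12, 0.48 and 0.76). From GC to OC CDKB2;2 fell by -1.57 ± 0.28 (adjusted p = 0.00019) and CYCB3;1 by -0.72 ± 0.17 (adjusted p = 0.0029), while CDKB1;2 changed by -0.41 ± 0.2 (adjusted p = 0.13).

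Of 8 genes of the spindle and of cytokinesis, 7 were highest at GC and AUR3 at RH. All 8 fell at least 2-fold from GC to OC, against 3.02% of all loci. Their median change was -1.52, against -1.02 in the 10 B-type genes and -0.03 over all loci. Over germination 6 of the 8 rose and 1 fell: HINKEL rose by 2.92 ± 0.2 (adjusted p = 3.6e-11) and KNOLLE by 2.32 ± 0.21 (adjusted p = 3e-09), and the kinase gene AUR2 fell by 0.59 ± 0.15 (adjusted p = 0.0013). TPX2, a spindle assembly factor, rose from RP to OC by 0.83 ± 0.14 (adjusted p = 3.4e-05) and AUR2 by 0.64 ± 0.15 (adjusted p = 0.00088), while AUR3 fell by 0.77 ± 0.2 (adjusted p = 0.0023).

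DNA replication genes, which act in S phase, had another time course. Of 12 genes, 10 were highest at RP, 1 at TR and 1 at 6H, against 5.39%, 7.36% and 17% of all loci. All 12 had already risen from DS to 6H, against 29.6% of all loci. Over germination all 12 rose, MCM3 of the replicative helicase by 4.77 ± 0.17 (adjusted p = 3.1e-15) and the sliding clamp PCNA1 by 4.47 ± 0.21 (adjusted p = 1.5e-13). Afterwards, from RP to OC, all 12 fell, among them RNR1 of ribonucleotide reductase by 2.23 ± 0.1 (adjusted p = 1.2e-13) and MCM5 by 2.12 ± 0.14 (adjusted p = 1.5e-10). The median of the list was -1.9 in that span and 0.13 in the 10 B-type genes. A test of the difference between the lists was not made.

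**Figure D4:**
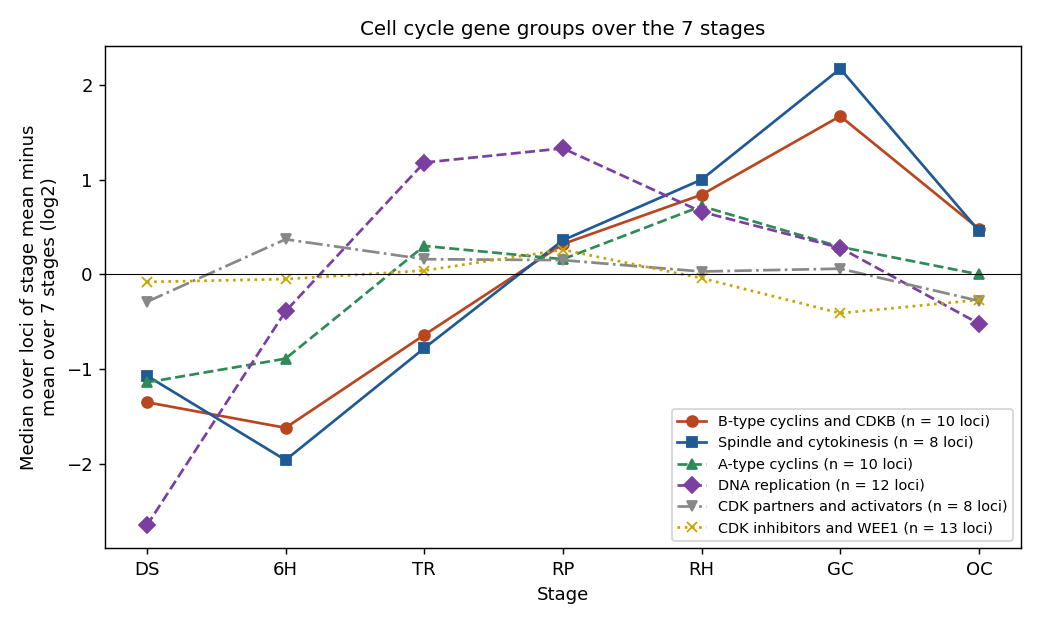
Median over the loci of a list of the stage mean minus the mean over the 7 stages (vertical axis, log2) at each stage, for the 10 B-type cyclin and CDKB genes and 5 other lists of cell cycle genes. The B-type genes and the 8 spindle and cytokinesis genes peak at GC, at 1.67 and 2.17. The 12 DNA replication genes stand at 1.18 at TR and 1.33 at RP, their highest point.

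A-type cyclins, which act from S phase to early mitosis, were divided in time: 4 of 10 were highest at GC, 3 at RP, 2 at 6H and 1 at DS. Over germination 8 rose and 1 fell, CYCA3;2 by 4.54 ± 0.2 (adjusted p = 4.8e-14), CYCA2;3, a partner of CDKB1;1, by 3.44 ± 0.24 (adjusted p = 5.4e-11) and CYCA3;3, near the floor, changed by -0.35 ± 0.15 (adjusted p = 0.043). After radicle protrusion CYCA3;2 and CYCA3;1 fell by 1.61 ± 0.2 and 1.56 ± 0.18 (adjusted p = 6.5e-07 and 3.9e-07) and CYCA1;1 rose by 0.63 ± 0.17 (adjusted p = 0.0032), in counts of 4 that fell and 1 that rose.

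Among 8 other kinases and partners, CDKA;1, the kinase that works throughout the cell cycle, was highest at 6H and moved within a range of 1.06, between 6.68 and 7.74. Its rise from DS to RP, 0.33 ± 0.1 (adjusted p = 0.0055), turned to -0.07 and -0.08 when arrays were centred on the median of all loci or on reference genes. By OC it had fallen from its RP level by 0.47 ± 0.1 (adjusted p = 0.00034). The CDK-binding subunits CKS2 and CKS1 rose by 3.03 ± 0.12 and 2.74 ± 0.16 from DS to RP (adjusted p = 1.8e-14 and 3.4e-12), in a list where 5 rose and 1 fell, CDKD;2, of the CDK-activating kinases, by 0.8 ± 0.14 (adjusted p = 2.9e-05). Later, from RP to OC, 4 fell and none rose, led by the same gene and CYCH;1 at -0.77 ± 0.14 and -0.71 ± 0.14 (adjusted p = 6.1e-05 and 0.00017).

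A list of 13 genes held CDK inhibitors and WEE1. SMR5, an inhibitor known from stress responses, had the largest change of the list from DS to RP: its level was 11.34 at DS, 7.94 at 6H, 4.59 at TR and 3.78 at RP, a fall of 7.55 ± 0.31 from DS to RP (adjusted p = 2.4e-14). KRP6 fell by 2.35 ± 0.14 in that span (adjusted p = 5.9e-12), while KRP2 rose by 3.07 ± 0.13 (adjusted p = 4.4e-14) and SMR4 by 3.04 ± 0.15 (adjusted p = 4.5e-13). In all 7 rose and 5 fell, against 31.7% and 40.8% of all loci. Between RP and OC 3 rose, led by SMR1 at 1.1 ± 0.13 (adjusted p = 4.1e-07) and KRP1 at 0.97 ± 0.18 (adjusted p = 0.00013), and 5 fell, led by SMR4 at -1.49 ± 0.15 (adjusted p = 6e-08) and KRP5 at -1.21 ± 0.12 (adjusted p = 5.2e-08).

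MYB3R factors bind the promoters of G2 and M phase genes, some as activators and some as repressors. Of the 5, 4 fell from DS to RP, MYB3R3, a repressor, by 2.35 ± 0.12 (adjusted p = 3e-13) and MYB3R5, another repressor, by 1.66 ± 0.28 (adjusted p = 2.4e-05). MYB3R1 rose by 0.35 ± 0.16 (adjusted p = 0.048), a direction that turned under further quantile normalization and under both centrings. None of the 5 passed from RP to OC. MYB3R4, an activator picked out here after its values were seen, was the one highest at GC: its level was 5.58 at DS, 3.57 at 6H, 4.21 at TR, 4.53 at RP, 5.14 at RH, 5.72 at GC and 4.47 at OC. It fell by 2.01 ± 0.2 from DS to 6H (adjusted p = 3.8e-08) and by 1.25 ± 0.2 from GC to OC (adjusted p = 6.5e-05), and rose by 0.58 ± 0.2 from RH to GC (adjusted p = 0.047). Its dry seed level was close to that at GC, and no test of that pair is given, so GC is not set apart from DS here.

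The anaphase-promoting complex marks B-type cyclins for destruction. Of 16 genes of the complex, its activators and inhibitors, 7 were highest at 6H and 4 at GC, against 17% and 7.72% of all loci. Those 4 were the activators CDC20.1, CDC20.2 and CCS52B and the inhibitor OSD1, named here after their values were seen. OSD1 stood at 4.36 at both RH and GC, so that these stages were not set apart (adjusted p = 1). From GC to OC these 4 fell, by 1.22 ± 0.14, 1.35 ± 0.23, 1.14 ± 0.2 and 0.89 ± 0.23 (adjusted p = 6.3e-07, 9.2e-05, 0.00017 and 0.0041). Over germination 9 of the 16 rose and 7 fell, with CCS52A1 at 3.34 ± 0.16 and CDC20.2 at 2.83 ± 0.23 (adjusted p = 2.1e-13 and 5.8e-10), and CCS52A2 at -1.45 ± 0.14 and CDC27A at -1.39 ± 0.16 (adjusted p = 1.2e-08 and 1.5e-07). Between RP and OC the core subunits APC1 and APC6 fell by 1.95 ± 0.11 and 1.2 ± 0.15 (adjusted p = 5.7e-12 and 8.5e-07), in a count of 9 that fell, and the 2 that rose were CDC20.1 by 0.67 ± 0.14 (adjusted p = 0.00026) and CCS52B by 0.51 ± 0.2 (adjusted p = 0.038).

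The 6 E2F, DP and RBR genes control entry into S phase. From DS to RP E2FA rose by 1.82 ± 0.19 (adjusted p = 3.9e-08) and DPA by 0.84 ± 0.17 (adjusted p = 0.00017). E2FB and DPB fell by 2.16 ± 0.15 and 0.82 ± 0.13 (adjusted p = 7e-11 and 9.5e-06). In all 2 rose and 3 fell, against 31.7% and 40.8% of all loci. From RP to OC 4 fell and none rose, E2FC and DPA by 1.12 each (adjusted p = 3.9e-06 and 1e-05).

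Markers of tissues that hold dividing cells did not have one course. The summed level of 7 stomatal lineage genes ran from 24.8 to 27.4 over the DS arrays, was highest at RH with 41.6 to 42.2, and ran from 38.2 to 39.4 at GC and from 36.4 to 38.6 at OC, and all 7 were above the floor from RP on. That of 5 root meristem genes ran from 22.8 to 23 at DS, from 28.5 to 29.8 at TR, from 27.2 to 27.6 at GC and from 27.1 to 29 at OC, with WOX5 near the floor at DS and 6H. That of 5 shoot meristem genes ran from 20.6 to 21.1 at DS, from 24 to 25.1 at GC and from 24.1 to 25.4 at OC. Its defining genes CLV3 and WUS were near the floor at all 7 stages. The others did not move together: CLV1 and KNAT1 were highest at OC, at 7.82 and 7.4, against 4.58 and 5.82 at DS. STM was highest at 6H, at 5.48, and stood at 3.93 at DS, 4.14 at GC and 3.68 at OC. The root meristem genes also parted: from DS to GC SCR went from 6.91 to 7.98, SHR from 3.98 to 6.66 and WOX5 from 3.2 to 3.72. PLT1 went from 3.99 to 4.31 and PLT2 stood at 4.82 at both stages. Of the stomatal lineage genes FAMA was highest at GC, at 5.02 against 4.22 at RH, and the others were highest at RH. Endosperm genes, 4 in number, summed to 25.5 to 25.9 at DS, 26.8 to 27.1 at 6H and 17.9 to 19.1 at GC, and ZOU and AGL62 were near the floor from 6H on. The part of these tissues in the levels of the B-type genes was not tested.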

How the data were processed

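The values, deposited on the log2 scale for 21 arrays, came from RMA (background correction, quantile normalization and a summary per probe set) per the submitters' processing notes. Its version, the platform and the annotation release are not given in the sources used here. There were 35986 probe sets, with values from 1.49 to 12.85. Probe sets of a locus were averaged, which joined several for 5818 loci, and the 215 whose values were shared by different loci were dropped with 192 loci, leaving 27789. Close paralogs can still share signal. Symbols came from RefSeq's TAIR10.1 table, where 27175 loci were found. No coordinates or sequences are given.

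One limma 3.58.1 model (R 4.3.3) was fitted to all arrays, with stage means and 14 residual degrees of freedom, default variance moderation, 2-sided contrasts and Benjamini-Hochberg adjustment over all loci within a comparison. The pipeline was tested on simulated data. The 10 genes, the gene lists, the tests and the markers were chosen with earlier results of these data known. Named were all 10 genes, in each list the 2 largest rises and falls that passed from DS to RP and from RP to OC, the whole of a list of 3 and CDKA;1, the 3 loci with the highest r to each gene (of which the text gives 1 to 3) and the 10 with the highest r to their mean.

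Alternatives were a further quantile normalization, centring on the median of all loci or on 9 reference genes, the probe set with the highest mean, a trended and robust prior, array weights, omission of dim loci, fits of only the 6 arrays compared, a replicate term, other thresholds and omission of each array. The reference genes were not all stable. Stage means spanned 1.84 in ACT2, 1.44 in AT4G33380, 1.22 in AT4G26410 and 1.15 in AT1G58050, which was near the floor from 6H on. In the others they spanned 0.93 or less. Leaving out both DS 2 and OC 2, and the alternatives for the lists, were added after the data were seen.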

Additional observations from a re-analysis of the deposited data

How the results depend on the processing

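Of 1860 values of the 60 gene-by-step changes under alternatives, 55 lost their call, 24 gained one and none turned sign while past the threshold. Of the 60 changes 42 kept their call throughout. Many of the 1860 values could hardly differ. Each gene had 1 probe set, so the choice of probe set left its values as they were. Leaving out an array outside a step kept the estimate of that step and altered only its SE and adjusted p. All 10 genes were highest at GC and passed the F test in every alternative run for these counts. The count changed at least 2-fold from DS to 6H, 2 as reported, was 1 under quantile normalization, reference centring or array weights, 4 with arrays centred on the median, 5 at a log2 threshold of 0.6, 0 at 1.5, and 0 without DS 2 and OC 2 together. From TR to RP it was 5 as reported, 2 under quantile normalization or reference centring, 8 at 0.6 and 0 at 1.5. At a threshold of 0.6 it became 2 from RP to RH, 9 from GC to OC and 2 from RP to OC, and at 1.5 it became 3 from GC to OC and 0 from RH to GC. With each array left out in turn it ran from 0 to 2 (DS to 6H), 5 to 7 (6H to TR), 2 to 5 (TR to RP), 4 to 6 (RH to GC), 6 to 7 (DS to RP), and stayed at 0 (RP to RH, RP to OC), 5 (GC to OC) and 7 (DS to OC). Of the 10 loci most like the mean of the genes, Spearman correlation shared 5 and stage means 6. The change of CDKA;1 from DS to RP reversed to -0.07 and -0.08 on median-centred and reference-centred values, and that of MYB3R1 to -0.03 under quantile normalization, -0.04 and -0.05 under these centrings. From DS to 6H the split of all loci past 2-fold was 4070 higher and 2965 lower as reported, 2457 and 6159 on median-centred and 3081 and 4353 on reference-centred values, with medians of -0.6 and -0.44 against -0.23, and 1 of the 10 genes rose and 8 fell on both. From DS to RP 5692 rose and 4829 fell as reported, 4231 and 7986 on reference-centred values, where 7 of the 10 genes rose in place of 9. A replicate block left the counts at 2, 6, 5, 0, 5 and 5 in the 6 steps. Same-numbered arrays did not deviate together (r from -0.33 to 0.22 over 63 pairs, median 0.01, and 9 of 21 arrays closest to their own number). A lack of shared deviation cannot tell whether the numbers pair samples, and the labels do not say. The cause of these differences was not tested. Levels near the floor limit what can be said of CYCB2;1 and of most of the genes at DS and 6H.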
